A study of Mus musculus with 4 samples.

Results

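The platelet-derived growth factor (PDGF) family was followed over 4 single-color Agilent arrays of mouse embryonic fibroblasts (MEFs). Its 7 genes, out of 31829 gene names on the array, were taken as every non-control probe that the files name Pdgfa, Pdgfb, Pdgfc, Pdgfd, Pdgfra, Pdgfrb or Pdgfrl. These are 9 probes in 18 spots, and 8 of the probes, covering 6 of the genes, were well above background on all 4 arrays. The exception was Pdgfra. The study asked which mRNA levels differ in MEFs that lack cyclin G1 (Ccng1), cyclin G2 (Ccng2) or both. The arrays used here, 1 per group, held CycG2-/- MEFs (labelled G2KO), CycG2+/+ MEFs as their wild type (labelled G2WT), CycG1-/-CycG2-/- MEFs (DKO) and CycG1+/+CycG2+/+ MEFs as the wild type of the DKO (labelled G1G2WT). All were C57BL/6J cells by their labels, prepared from mid-gestation embryos and collected in logarithmic growth in medium with fetal bovine serum, which itself carries PDGF. In the DKO, the coding exons of Ccng1 were replaced by a neomycin cassette, and the knockouts are carried by every cell of the embryo. The labels do not say whether RNA of several cultures or embryos was pooled. With 1 array per group, no difference below has a replicate check. The one fit that gives a p-value, limma, takes its error from the wild-type arrays alone.

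PDGF ligands are secreted dimers that drive the growth and migration of mesenchymal cells. PDGF-A and PDGF-B are cut within the cell by proprotein convertases, while PDGF-C and PDGF-D carry a CUB domain that proteases remove outside the cell. The ligands bind the receptor tyrosine kinases PDGFR-alpha and PDGFR-beta, which dimerize and signal through PI3 kinase, phospholipase C-gamma and the Ras and MAP kinase pathway. Fibroblasts usually carry both receptors, whereas pericytes and smooth muscle cells are known mainly for PDGFR-beta. Pdgfrl encodes a secreted protein that resembles the extracellular part of PDGFR-beta and has no kinase.

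Levels are background-corrected signal intensities divided by the 75th percentile of the same array, so that a level of 1 is the signal at that percentile. A level can be compared between arrays for 1 probe but not between probes. The spread of spots that carry the same probe was small, with a median SD on the log2 scale between 0.0752 and 0.122 per array, and this covers only the measurement within an array. The arrays of the wild-type cultures differed far more, with an SD of log2 ratios of 1.03 over probes well above background on both. Ccng1 was at 1.66 on the G1G2WT array and at background on the DKO array, as the DKO label requires. It was at 1.98 on the array labelled G2KO and at 9.45 on that labelled G2WT, a pair whose labels name no change in Ccng1. Ccng2 was at 0.0910, 0.104, 0.0619 and 0.0806 on the G2KO, G2WT, DKO and G1G2WT arrays, so that its probe does not separate knockout from wild type. The array labelled G2WT was the only one with Xist well above background, while the Y-linked Ddx3y and Eif2s3y were well above background on the other 3. In the G2KO comparison, the sex of the cells and the genotype therefore cannot be told apart. On the study's list for G2KO MEFs, Xist, Sox2 and Pdgfra all stand in the direction opposite to that which the labels of these files give. An exchange of the labels in this pair would turn the sign of every G2KO ratio below and would make the array labelled G2KO the second wild type. Whether they were exchanged is not settled by the files, so the arrays are named by their labels. Some values that depend on them are given both ways, and the others, among them the limma fit, only as labelled.

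The proximal promoters of 4 of the 7 genes were present in the RefSeq table used (GRCm38.p6), as the 250 bases before each transcription start. Those of Pdgfra, which had the widest range over the arrays, and of the ligand genes Pdgfa and Pdgfd, which carry different core elements, are shown 5′ to 3′. Capitals mark GC boxes (GGGCGG) and TATA boxes (TATAAA), each read on both strands. CCAAT boxes, by the letters of their name, were searched in the same way, and no motif contains another.
Pdgfra, chr5:75152001-75152250, + strand: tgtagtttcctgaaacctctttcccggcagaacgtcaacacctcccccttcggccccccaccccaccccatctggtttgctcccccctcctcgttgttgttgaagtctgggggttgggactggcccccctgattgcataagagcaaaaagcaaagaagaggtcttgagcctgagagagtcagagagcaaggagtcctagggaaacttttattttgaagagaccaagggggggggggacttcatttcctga
Pdgfa, chr5:138994945-138995194, - strand: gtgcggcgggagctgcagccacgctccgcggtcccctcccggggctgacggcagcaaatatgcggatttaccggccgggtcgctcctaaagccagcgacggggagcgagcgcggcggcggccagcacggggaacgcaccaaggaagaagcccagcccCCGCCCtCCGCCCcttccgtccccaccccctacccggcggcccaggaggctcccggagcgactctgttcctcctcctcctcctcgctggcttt
Pdgfd, chr9:6168236-6168485, + strand: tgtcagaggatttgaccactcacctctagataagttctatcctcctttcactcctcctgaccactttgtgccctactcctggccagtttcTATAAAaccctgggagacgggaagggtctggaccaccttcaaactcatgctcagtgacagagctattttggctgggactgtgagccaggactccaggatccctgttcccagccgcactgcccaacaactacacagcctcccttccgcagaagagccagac
The Pdgfra window, at 54.4% G and C, held none of the 3 motifs. The Pdgfa window, at 72.4%, held 2 GC boxes side by side and was richer in G and C than 93.6% of promoters in the table. A second Pdgfa promoter had 66.4% and 1 GC box. The Pdgfd window, at 53.6%, held 1 TATA box and no GC box, and that of Pdgfc, at 50.8%, held no motif. Over all 32851 promoters the median G and C content was 52.4%, and a GC box was present in 32.7%, a TATA box in 12.4% and a CCAAT box in 33.8%. These motifs are described as letters in the sequence only.

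Among the ligands, Pdgfa, whose product binds PDGFR-alpha, was well above background on every array, and its level lay within a range of 3.28-fold. It was at 10.8 on the array labelled G2KO, 26.3 on that labelled G2WT, 8.01 on the DKO array and 11.99 on the G1G2WT array. The G2WT array was the high one, and the other 3 lay close together. The probe lies on chromosome 5 at 139452934 to 139452993 (mm9, minus strand), as the files place it. A second probe, which overlaps it, gave 8.77, 15.7, 6.84 and 10.52 in the same order of arrays, with the highest and the lowest on the same arrays.

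Pdgfb, whose product binds both receptors, varied more. Its levels were 1.52 on the array labelled G2KO, 4.81 on that labelled G2WT, 0.346 on the DKO array and 0.790 on the G1G2WT array. The G2WT and DKO arrays stood at the ends, 13.9-fold apart, and the G1G2WT array lay nearer to the DKO array than to the other wild type. A second and much dimmer probe gave 0.0279, 0.141, 0.0113 and 0.0166, in the same order of arrays from high to low. The probes lie on chromosome 15 at 79826376 to 79826435 and at 79827438 to 79827497 (mm9).

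Pdgfc, a CUB-domain ligand of PDGFR-alpha, was nearly the same on 3 arrays and lower on the DKO array. It was at 7.88 on the array labelled G2KO, 7.77 on that labelled G2WT, 2.54 on the DKO array and 6.24 on the G1G2WT array. The difference of 2.45-fold between DKO and its wild type exceeded the 1.25-fold between the wild types, and with the labels of the G2KO pair turned the latter would be 1.26-fold. Pdgfd, the CUB-domain ligand of PDGFR-beta, gave the order by pair instead, with 0.0517 and 0.116 on the arrays labelled G2KO and G2WT and 0.182 and 0.312 on the DKO and G1G2WT arrays. The DKO array was below its wild type, and the array labelled G2KO was below that labelled G2WT, which with the labels turned would make the G2 knockout the higher one. The Pdgfc probe lies on chromosome 3 at 81017572 to 81017631 and the Pdgfd probe on chromosome 9 at 6376926 to 6376985 (mm9).

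Pdgfra, the receptor that marks many embryonic mesenchymal cells, had by far the widest range of the family. It was at 5.22 on the G1G2WT array, 1.75 on the array labelled G2KO, 0.0296 on the DKO array and 0.00223 on the array labelled G2WT. Each array carries 10 spots of this probe (chromosome 5, 75593888 to 75593947, mm9), so that the values within an array are well determined. The SD between spots on the log2 scale was 0.0507 on the G1G2WT array, 0.0832 on the array labelled G2KO and 0.103 on the DKO array. On the array labelled G2WT, 9 spots were kept, and 0 of them were well above background, with signals from 2.65 to 4.30. As labelled, the wild-type arrays stood at opposite ends, at least 729-fold apart, with both knockout arrays between them. With the labels of the G2KO pair turned, both wild types would be high, at 5.22 and 1.75, and both knockouts low, at 0.0296 and 0.00223. In bulk RNA, fewer cells of a type and less RNA per cell cannot be told apart.

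Pdgfrb, the receptor of pericytes and smooth muscle as well as of fibroblasts, was well above background on every array. It was at 12.6 on the G1G2WT array, 8.04 on the array labelled G2KO, 5.44 on that labelled G2WT and 0.957 on the DKO array. The DKO array was the low one, 5.69-fold below the next, while the other 3 lay within steps of 1.56-fold and 1.48-fold. Pdgfrl (chromosome 8, 42075859 to 42075918, mm9) followed the same order of arrays, at 9.35, 4.48, 1.61 and 0.533. Its steps were more even, at 2.09-fold, 2.77-fold and 3.03-fold.

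**Figure D1:**
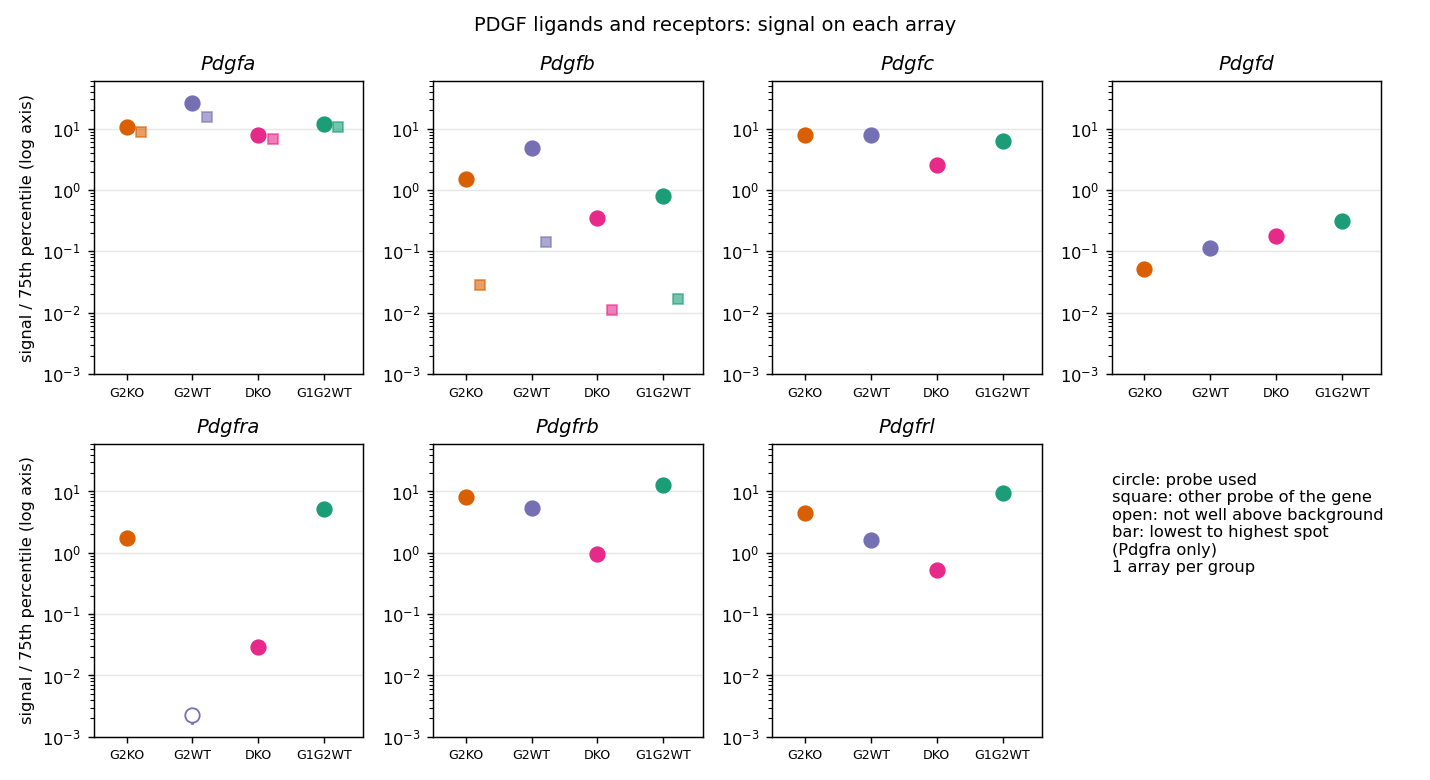
Level of each PDGF gene (signal over the array's 75th percentile, log axis) on the arrays labelled G2KO and G2WT, the DKO array and the G1G2WT array, 1 array per group; circles are the probe used, squares the other probe of Pdgfa and Pdgfb, the open circle a probe not well above background, and bars span the lowest to the highest Pdgfra spot. Pdgfra runs from 0.00223 to 5.22, whereas Pdgfa stays between 8.01 and 26.3.

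In the DKO array against its wild type, all 7 genes were lower. The receptor genes Pdgfra and Pdgfrb and the receptor-like Pdgfrl were the furthest below. The log2 ratios were -7.46 for Pdgfra, which is 176-fold lower, -3.72 for Pdgfrb, which is 13.1-fold lower, and -4.13 for Pdgfrl, which is 17.5-fold lower. The ligands differed less, with -0.58 for Pdgfa, -1.19 for Pdgfb, -1.30 for Pdgfc and -0.78 for Pdgfd. Thus 3 of 7 genes were lower by at least 4-fold and 0 were higher, where 8.07% of all 22881 genes compared differed that far, 4.03% lower and 4.04% higher. The median was -1.30 for the family and 0.03 for all genes.

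In the array labelled G2KO against that labelled G2WT, Pdgfra, Pdgfrb and Pdgfrl lay on the other side of 0. Pdgfra was at least 244-fold higher, a lower limit of 7.93 on the log2 scale, because the array labelled G2WT gave only background. This direction follows the labels and is opposite to that of the study's own list of genes for G2KO MEFs, on which Pdgfra stands. With the labels turned it would be lower, with a limit of -7.93, and Pdgfrl and Pdgfrb would be at -1.47 and -0.56. Pdgfra was therefore chosen by the study on these cells, and its size is no independent evidence. Pdgfrl had a log2 ratio of 1.47 and Pdgfrb of 0.56. Among the ligands, Pdgfa was at -1.28, Pdgfb at -1.66, Pdgfd at -1.16 and Pdgfc at 0.02. Of the 7 genes, 1 was higher by 4-fold (Pdgfra) and 0 were lower, beside 5.73% of 22791 genes, 3.71% higher and 2.02% lower. The median was 0.02 for the family and -0.17 for all genes.

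As labelled, the wild-type arrays differed from each other in some of these genes. In G1G2WT over G2WT, 3 of 7 genes passed 4-fold, 2 of them higher, beside 7.39% of 22137 genes, 4.63% higher and 2.76% lower. Pdgfra had a lower limit of 9.51 on the log2 scale and Pdgfrl a ratio of 2.53, while Pdgfb was at -2.61. Pdgfd at 1.43, Pdgfrb at 1.21, Pdgfa at -1.13 and Pdgfc at -0.32 did not reach 4-fold. The limit for Pdgfra was thus larger in size than its value in either knockout comparison. With the labels of the G2KO pair turned, the wild types would be the G1G2WT array and the array labelled G2KO. These differed by 1.58 for Pdgfra, below its value in either knockout comparison. Of the 7 genes, 1 would pass 4-fold (Pdgfd at 2.59), beside 2.3% of all genes. Pdgfrb was at -3.72 in DKO and 1.21 between the wild types, or 0.65 with the labels turned. These comparisons share arrays, so their ratios are not independent of each other.

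**Figure D2:**
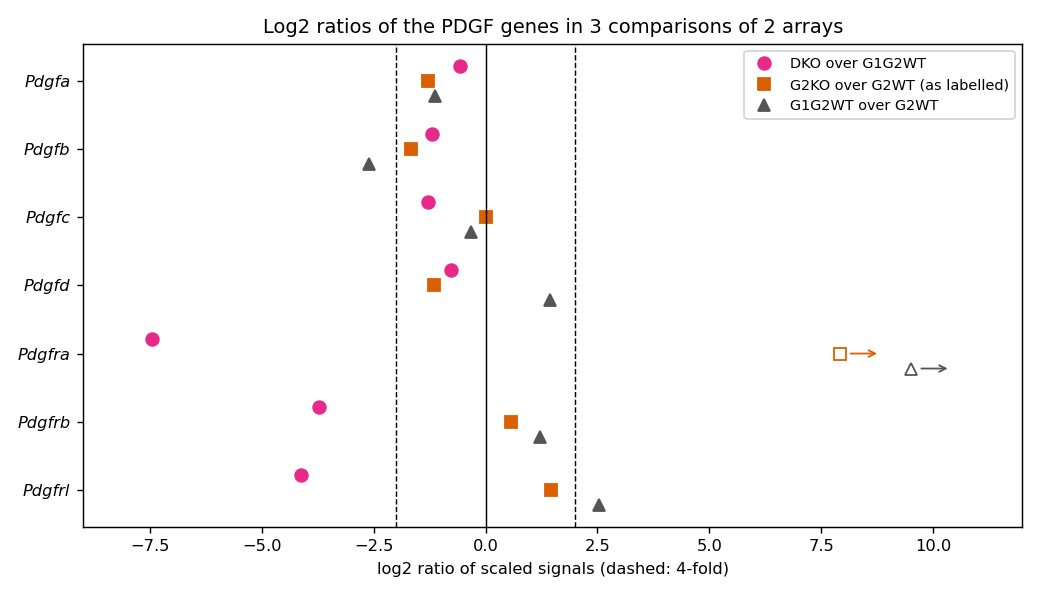
Log2 ratio of scaled signals for each PDGF gene in DKO over G1G2WT (circles), in the array labelled G2KO over that labelled G2WT (squares) and in G1G2WT over G2WT (triangles), each from 2 arrays; dashed lines mark 4-fold and open symbols with arrows are lower limits. All 7 circles lie below 0, and Pdgfra lies at -7.46, 7.93 and 9.51.

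The choice of the wild type mattered most for Pdgfra. Set against the G2WT array instead, the DKO array was at least 4.13-fold higher for Pdgfra and lower for Pdgfrb, at -2.51, and for Pdgfrl, at -1.60. Thus, with the wild types as labelled, Pdgfrb was past 4-fold and below both, and Pdgfrl below both but past 4-fold against only 1 of them. Pdgfc, at -1.61, Pdgfa, at -1.71, and Pdgfb, at -3.80, were also below both, whereas Pdgfd, at 0.65, was not. In this pairing 3 of 7 genes passed 4-fold, beside 9.61% of all genes. A limma fit with the wild-type arrays as 1 group called 0 of 30344 probes in either knockout at an adjusted p (Benjamini-Hochberg) of 0.05, with 2498 probes at an unadjusted p of that size in DKO and 475 in G2KO. The difference between the wild types as labelled leaves it 1 residual degree of freedom, and its error is moderated with that of all probes. For Pdgfrb in DKO it gave an adjusted p of 0.449, the lowest of the 7 genes.

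Pairs of arrays that the design does not compare gave these values. Between the array labelled G2KO and the G1G2WT array, 1 of the 7 PDGF genes passed 4-fold, beside 2.3% of all genes. It was Pdgfd, at -2.59 on the log2 scale, while Pdgfra was at -1.58, Pdgfrl at -1.06, Pdgfrb at -0.65, Pdgfa at -0.15, Pdgfc at 0.34 and Pdgfb at 0.95. Over probes well above background on both arrays, this pair had the smallest SD of log2 ratios of the 6 pairs, 0.570, beside 1.03 between the arrays labelled wild type. Between the DKO array and the array labelled G2KO, 4 of 7 genes were lower by at least 4-fold and 0 were higher, beside 8.58% of all genes. They were Pdgfra at -5.88, Pdgfrb at -3.07, Pdgfrl at -3.07 and Pdgfb at -2.14. Pdgfd was at 1.81 in that pair. With the labels turned, this pair would set DKO against the second wild type.

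The proteins that cut, hold or bind the ligands differed gene by gene. Among all genes, 8.07% passed 4-fold in DKO and 5.73% in the array labelled G2KO. Of the 6 ligand-processing genes compared in DKO, 1 was at least 4-fold higher and 0 lower, with a median of 0.27. It was St14, a serine protease of the cell membrane, at 3.20. Furin, the convertase of many growth factor precursors, was at -0.80, and Plat, the tissue plasminogen activator that cleaves PDGF-C, was at 0.98. Plau, the urokinase that cleaves PDGF-D, was at -1.40. With G2KO as labelled, Plat was the 1 gene past 4-fold, at 2.22. Of the 5 coreceptor and matrix genes, 0 passed 4-fold in DKO. Lrp1, an endocytic coreceptor of PDGFR-beta, was at -0.11 and Sparc, a matrix protein that binds PDGF, at 0.14. The integrin subunit Itgb3 was at 1.39 in DKO and at 2.88 in the array labelled G2KO, where it was the 1 gene of the group past 4-fold.

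The genes that carry the signal inside the cell had medians near that of all genes. Past 4-fold were 8.07% of all genes in DKO, 5.73% in the array labelled G2KO and 7.39% in G1G2WT over G2WT. Of 20 adaptors and enzymes that bind the activated receptors, 1 was lower by 4-fold in DKO, the Src-family kinase Fyn at -2.09, with a median of -0.21 over the group. The adaptor Grb2 was at -0.14, the phosphatase Ptpn11 at -0.57 and the PI3 kinase subunit Pik3r1 at -0.48. Of 12 genes of the Ras, MAP kinase and Akt cascade, 0 passed 4-fold in DKO or in either other comparison. Their medians were -0.11 in DKO, -0.42 in the array labelled G2KO and -0.27 in G1G2WT over G2WT. For the array labelled G2KO, 0 of the 20 adaptors and enzymes passed 4-fold.

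Among 12 brakes on receptor tyrosine kinases, Spry2 was 4-fold lower in DKO, at -2.23, and the median was -0.33. Over all genes, 8.07% passed 4-fold in DKO and 5.73% in the array labelled G2KO. Dusp6, a phosphatase that switches off ERK and is induced by it, was higher in DKO at 1.41, and Spry4, at -1.21, was lower. In that labelled G2KO, Spry4 was the 1 gene past 4-fold, at 2.99. Of 14 growth-response genes compared in DKO, 2 were higher and 1 lower by 4-fold. The lower one was Egr2, an immediate early transcription factor, at -3.23, and Srf, Fosl1 and Myc were at -1.39, -1.39 and -1.01. The higher ones were the chemokines Ccl2 at 3.69 and Ccl7 at 4.13, known as PDGF-induced genes of fibroblasts. Both were high in the array labelled G2KO as well, at 6.71 and 6.62, and in G1G2WT over G2WT at 5.43 and 6.03. The array labelled G2WT was low for both chemokines, with Ccl2 at a level of 0.210 beside 9.05 to 117 on the others.

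The structural relatives differed in direction from gene to gene. Their counts stand beside shares of all genes past 4-fold of 8.07% in DKO and 5.73% in the array labelled G2KO. Of 8 vascular endothelial growth factor genes and receptors, 1 was 4-fold higher in DKO, the lymphatic receptor Flt4 at 3.66, and Vegfc was at -1.87, below 4-fold. Of 7 genes of the other class III receptors and their ligands, Kit was higher in DKO by at least 3.32 on the log2 scale, being well above background on that array alone. Il34, a ligand of the receptor Csf1r, was lower at -2.18, and Csf1r and Flt3 were at 0.18 and 0.08. In the array labelled G2KO, Figf, which encodes VEGF-D, was higher at 3.59, and 0 of the 6 class III relatives compared passed 4-fold. Vegfc was at 1.33 and Il34 at 1.83 there, so that both changed side between the knockout comparisons, as Pdgfra, Pdgfrb and Pdgfrl did. Of the VEGF genes, 7 of 8 were below 0 in DKO and 6 of 8 above 0 in the array labelled G2KO. The class III relatives ran the other way, with 5 of 7 above 0 in DKO and 5 of 6 below 0 in that labelled G2KO.

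**Figure D3:**
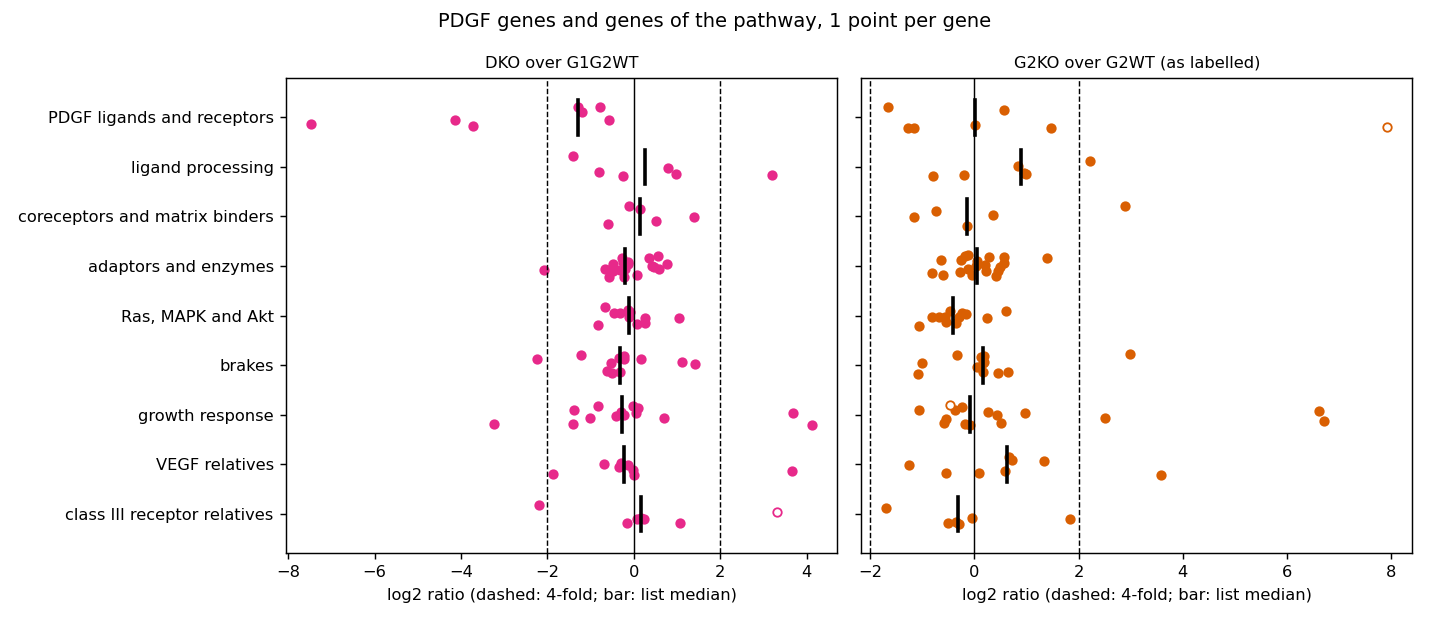
Log2 ratios of the 7 PDGF genes and of 8 groups of related genes in DKO over G1G2WT (left) and in the array labelled G2KO over that labelled G2WT (right), 1 point per gene; the vertical bar is the median of the group, dashed lines mark 4-fold and open points are lower limits. The medians in DKO are -1.30 for the PDGF genes and between -0.33 and 0.27 for the other groups.

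The genes around Pdgfra on chromosome 5 did not share its size of difference. In DKO, 1 of the 10 neighbours compared passed 4-fold, beside 8.07% of all genes. It was Kit, at a distance of 459 kb and in the opposite direction. Chic2, at -187 kb on the other side, was at -0.96, Lnx1 at -1.59, Scfd2 at -1.11 and Kdr, the main VEGF receptor, at -0.14. The median over the 10 was -0.48. In the array labelled G2KO, 0 of the neighbours passed 4-fold, beside 5.73% of all genes. Scfd2 was at 1.37, Lnx1 at 1.07 and Chic2 at 0.72. Gsx2, lower there, had only a limit of -1.46. A second probe of Kdr gave another ratio in DKO, so this gene is uncertain.

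**Figure D4:**
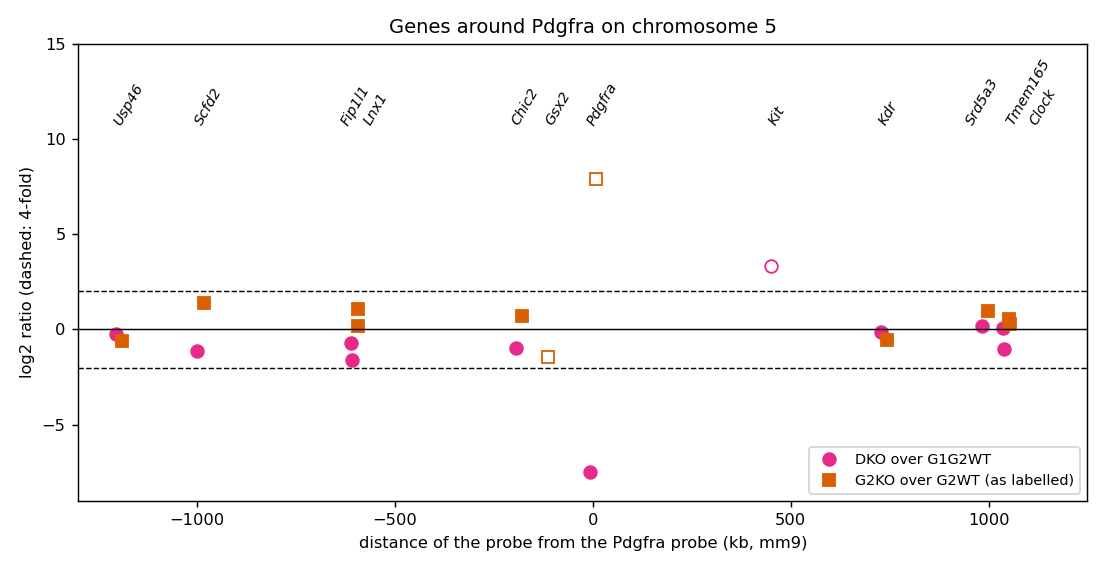
Log2 ratio of Pdgfra and of its neighbours against the distance of each probe from the Pdgfra probe in kb (mm9), in DKO over G1G2WT (circles) and in the array labelled G2KO over that labelled G2WT (squares); dashed lines mark 4-fold and open symbols are lower limits. Pdgfra stands at -7.46 and 7.93, while apart from Kit every value plotted for a neighbour lies between the dashed lines.

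Markers of several cell types also differed between the arrays. The shares of all genes past 4-fold were 8.07% in DKO, 5.73% in the array labelled G2KO and 7.39% in G1G2WT over G2WT. All 14 fibroblast markers were well above background on 3 arrays, and 12 of 14 on the array labelled G2WT, where Lum and Fap were not. Their summed level, mostly from Col1a2, Fn1 and Vim, was 302 on that array and 415 to 525 on the others. Sums over probes follow the brightest probes and do not measure an amount of a cell type. In DKO, Postn, a matrix protein of mesenchyme, was at -7.54 and Thy1 at -4.17, while Dcn was at 4.05 and Col1a1, Col1a2 and Vim were at -0.03, -0.25 and -0.05. Thus 1 of 14 was higher and 2 lower by 4-fold. Against that labelled G2WT, the array labelled G2KO had 5 of 14 higher and 0 lower, among them Thy1 at 6.85, Postn at 4.26 and Col3a1 at 3.78. In G1G2WT over G2WT 7 of 14 were higher. Collagen I, fibronectin and vimentin were thus well measured on all arrays, and Thy1 and Postn were low on the same arrays as Pdgfra.

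Most mesothelial markers were highest on the DKO array. All 12 were well above background there, beside 4 to 6 of 12 on the others. In DKO over G1G2WT, 11 of 12 were at least 4-fold higher, beside 4.04% of all genes. In either direction, 8.07% of all genes passed 4-fold there, and 5.73% in the array labelled G2KO. The mesothelial markers summed to 150 on the DKO array, mostly from Msln and Krt18, and to 0.704 to 1.73 on the others. Wt1, Upk3b, Upk1b, Lrrn4 and Gpm6a were not well above background on any other array. Krt7 was an exception, at 0.133 on the array labelled G2WT and 0.0704 on the DKO array, and Krt19 was at 0.524 on the array labelled G2KO beside 1.19. Of the mural cell markers, the proteoglycan Cspg4, which pericytes and oligodendrocyte precursors carry, was at -7.72 in DKO. It was the 1 of 6 pericyte markers compared there that passed 4-fold. Cspg4 was also lower on the array labelled G2WT, at a level of 0.969 beside 11.7 on that labelled G2KO and 8.21 on the G1G2WT array. Its log2 ratio was thus 3.59 in the array labelled G2KO and 3.08 in G1G2WT over G2WT. Notch3, at 1.86, Rgs5, with a limit of 0.66, Mcam, at 0.45, and Cox4i2, at 0.13, were above 0 in DKO, and the median was 0.29. The contractile genes Acta2 and Tagln were at -2.17 and -3.50, and these were the 2 of 6 smooth muscle markers past 4-fold, while Myh11, with a limit of 1.40, Smtn, at 0.48, and Cnn1, at 0.17, were above 0. The pericyte markers Abcc9, Kcnj8 and Vtn were not well above background on any array. The 10 pericyte markers summed to 8.37 on the DKO array and 14.4 to 18.4 on the others, carried by Cspg4 and Mcam. The 6 smooth muscle markers summed to 49.7 and 226 to 369, mostly from Acta2 and Tagln. As such sums follow the brightest probes, they do not measure an amount of a cell type. Neural progenitor markers were high on the array labelled G2WT, with a sum of 30.6 beside 1.47 to 2.22, carried by Nes and Sox2. Of the oligodendrocyte precursor markers, Olig1, Olig2 and Gpr17 were not well above background on any array. Of the endothelial markers, 5 of 8 could be compared in DKO and 4 in the array labelled G2KO, and of the macrophage markers 6 and 5 of 8. Of these, 0 passed 4-fold. The part of these cell types in the PDGF values was not tested.

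The genes whose levels over the 4 arrays ran most like those of a family member were found by the smallest Euclidean distance between mean-centred log2 levels, among 24488 genes. For Pdgfra these were Limch1 at 0.612, Igfbp2 at 0.858 and Ppbp at 0.997, against a range of at least 9.51 for Pdgfra itself. As Pdgfra gave only background on the array labelled G2WT, its distances and their order rest on the lowest measurable signal set there. For Pdgfrb they were Cables1 at 0.198, Dchs1 at 0.248 and 9630023C09Rik at 0.253, and for Pdgfrl the collagen gene Col12a1 at 0.399, the homeobox gene Gsc at 0.435 and the Wnt receptor gene Fzd9 at 0.512. For the ligands, the nearest were Gdap1l1 for Pdgfa at 0.101, Rbmx for Pdgfb at 0.316, Gng10 for Pdgfc at 0.0776 and Zfr2 for Pdgfd at 0.320. With 4 arrays and this many genes, close profiles are common, and the distances describe these arrays only.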

How the data were processed

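Total RNA of 4 MEF cultures was labelled with Cy3 and hybridized to Agilent Whole Mouse Genome arrays, 1 per group, on 1 slide scanned together. The authors deposited the intensity of each spot, background-corrected and detrended by Agilent Feature Extraction (10.7.3.1 in the file headers, 10.5.1.1 in the submitters' processing notes). The deposited table of the series holds the same intensity values. Besides 1377 control spots, 43020 spots for 39429 probes were read, and 107 to 140 outlier spots per array were left out. No spot was saturated. Intensities were divided by each array's 75th percentile (between 1586.21 and 2233.61), spots of a probe were averaged as log2, and the probe of highest mean log2 signal stood for a gene. A probe was compared if well above background on 1 of 2 arrays. Its signal on a dim array was raised, where lower, to the lowest signal well above background there (11.4 to 19.2), which gives a lower limit. Where that limit pointed the other way, no ratio was given. Between 65.0% and 72.2% of probes were well above background per array; precision is limited by the number of arrays. A 4-fold difference was counted. Hras was not on the array by that name.

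The family members, the gene lists and the comparisons were chosen with earlier results of these data known. Named genes were the 7 members, the cyclin genes, members of the lists and the 3 nearest profiles of each member. Xist, Ddx3y and Eif2s3y were named to check the labels. Python 3.11.15, pandas 2.3.3, R 4.3.3 and limma 3.58.1 were used. The code for the ratios and the fit was run on simulated data. Their noise was far below the difference between the wild-type arrays, so the fit was not tested under conditions like these. Promoters came from RefSeq (GRCm38.p6), probe positions from the files (mm9), and no mm9 annotation of exons was used here. The alternatives were other background corrections, scalings, filters and thresholds, the other probe, the other wild type, and limma. The methods describe dye-swapped arrays for G2KO MEFs, whereas the labels describe single-color ones, as the files hold.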

Additional observations from a re-analysis of the deposited data

Results flagged for a closer look

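Pdgfra and Pdgfrl lay on opposite sides of 0 in the knockout comparisons. Pdgfra had a log2 ratio of -7.46 in DKO over its wild type and a lower limit of 7.93 in the array labelled G2KO over that labelled G2WT. Pdgfrl was at -4.13 and 1.47. With the labels of the G2KO pair turned, both genes would be below 0 in both comparisons. Each comparison has 1 array per group, and the difference between them was not tested.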

How the results depend on the processing

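Of 214 ratios of family members under alternatives, 180 moved by less than the SD of log2 ratios between wild-type arrays (1.03). Another 31 moved by more, and 3 that were past 4-fold changed sign. Many of the 180 could not move. The series table repeats the same intensities, most members have 1 probe, and the filters change nothing for probes well above background on both arrays. The 180 are thus no measure of stability. With the labels turned, the SD would be 0.570. The 3 that changed sign were all of Pdgfra. It was at 2.05 on the log2 scale in DKO against the G2WT array and at -1.58 in the array labelled G2KO against the G1G2WT array, and at -7.93 with the labels of the G2KO pair turned, an alternative chosen after seeing the data. Among ratios under 4-fold, the other wild type also changed the sign of Pdgfd in DKO (0.65) and, in the array labelled G2KO, of Pdgfb (0.95), Pdgfrb (-0.65) and Pdgfrl (-1.06). There, Pdgfrb was at -0.04 against the mean of both wild types and Pdgfc at -0.02 when scaled to the median. Of the 7 genes, 5 passed a 2-fold threshold in DKO and 5 in the array labelled G2KO, beside 20.3% and 17.1% of all genes, and 6 passed it in G1G2WT over G2WT, beside 21.6%. There, 1 passed 10-fold, beside 2.68% of all genes, and 1 passed 4-fold between the wild types with the labels turned. For that labelled G2KO, 0 genes passed 4-fold when a probe had to be well above background on both arrays, since Pdgfra was then not compared, and 2 passed with the other Pdgfb probe. Limma called 0 of the 7 in either knockout. At an unadjusted p of 0.05 it had 1 in DKO (Pdgfrb) and 0 in G2KO. Over the alternatives that kept the wild type, Pdgfra ran from -7.68 to -6.06 in DKO, from 5.28 to 9.61 in the array labelled G2KO and from 6.83 to 11.19 between the wild types, and Pdgfrb from -3.80 to -3.70 in DKO. The dim signal of Pdgfra on the array labelled G2WT limits its ratios. No paired analysis was possible because each group has 1 array and the labels carry no replicate numbers.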
